A study of Rattus norvegicus with 6 samples.

Results

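The genes described here encode the auxiliary subunits of voltage-gated calcium channels: Cacna2d1, Cacna2d2 and Cacna2d3, which encode α2δ proteins, and Cacnb1, Cacnb2, Cacnb3 and Cacnb4, which encode β proteins. They were selected by gene name, with earlier results of these data known, and are 7 of the 22536 genes in the deposited table. Each name matched 1 row. The study sequenced 1 RNA library from each of 6 male rats, of which 3 were controls and 3 had painful diabetic neuropathy (PDN). The labels call the tissue sensory neuron and the title of the series names the dorsal root ganglion, which holds the cell bodies of sensory neurons beside satellite glia, Schwann cells, vessels and connective tissue. The sources used here give neither the strain and age of the rats nor how diabetes was brought about and how long it lasted.

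A high-voltage-activated calcium channel is built on a pore-forming α1 subunit, to which a β and an α2δ subunit bind. The β subunit is cytosolic, binds the loop between the first and the second repeat of the pore and sets how many channels reach the membrane and how they gate. The α2δ subunit is extracellular, held at the membrane by its δ part, and raises the number of channels at the surface and at presynaptic release sites. The proteins of Cacna2d1 and Cacna2d2 bind gabapentin and pregabalin, drugs used against neuropathic pain including that of diabetes, and Cacna2d1 is known to rise in the dorsal root ganglion after physical injury of a peripheral nerve.

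Levels are FPKM, a unit that scales fragments to transcript length and library size so that genes can be set side by side. The sources used here name no quantifier, so the lengths used are not known, and comparisons of level between genes depend on them. All 7 genes were expressed in every library, and all 7 passed the filter of at least 1 FPKM in at least 3 libraries. Cacnb3 had the highest level at 91.2 ± 3.06 FPKM (SD, n = 6 libraries of both groups). Cacna2d1 followed at 44.5 ± 2.86 FPKM, then Cacna2d3 at 25.6 ± 1.02, Cacnb4 at 22.3 ± 1.18, Cacna2d2 at 17.6 ± 3.18 and Cacnb1 at 11.1 ± 0.946. Cacnb2 was lowest at 1.47 ± 0.239 FPKM, close to the filter. This order was the same in 6 of 6 libraries. Cacnb3 exceeded Cacna2d1 by 1.82 to 2.27 times within a library and Cacnb2 by 46.2 to 74.5 times. The step from Cacna2d3 to Cacnb4 was small, at 1.03 to 1.24 times, and the ranges of Cacnb4 and Cacna2d2 over the libraries overlapped. Cacna2d4, the remaining α2δ gene, which is best known from retina, did not exceed 0.0366 FPKM and was listed at 0 in 3 libraries.

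**Figure D1:**
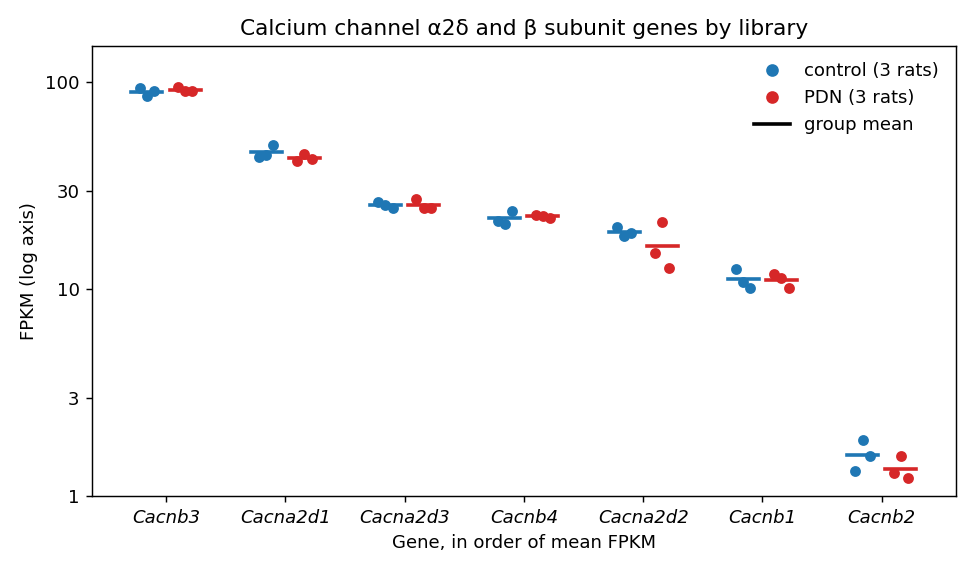
FPKM (log axis) of each α2δ and β subunit gene in the 3 control and 3 PDN libraries, with points for libraries and lines for group means. Cacnb3 lies between 86.1 and 94.6 in all 6 libraries, Cacnb2 between 1.22 and 1.86, and the control and PDN points of every gene overlap.

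The 7 genes lie on 7 different chromosomes. As the deposited table gives the loci, without a build, Cacna2d1 (ENSRNOG00000033531) is at chromosome 4, 15710417 to 16130848, Cacna2d2 (ENSRNOG00000015835) at chromosome 8, 116154425 to 116289440, and Cacna2d3 (ENSRNOG00000031287) at chromosome 16, 4871650 to 5795825. Cacnb1 (ENSRNOG00000004518) is at chromosome 10, 85954138 to 85974651, and Cacnb2 (ENSRNOG00000018378) at chromosome 17, 81683549 to 82017682. Cacnb3 (ENSRNOG00000054274) is at chromosome 7, 140315368 to 140324902, and Cacnb4 (ENSRNOG00000007666) at chromosome 3, 37955069 to 38090526. The β gene with the highest level, Cacnb3, spans 9535 bases and that with the lowest, Cacnb2, 334134, whereas the longest of all, Cacna2d3 with 924176 bases, was the third by level.

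RefSeq start sites were found for 5 of the 7 genes, Cacna2d1, Cacna2d2, Cacna2d3, Cacnb2 and Cacnb3, in 8 windows, and the 250 bases before the start are shown for the highest gene of each family and for both starts of the lowest. The sequences are from build GRCr8, which need not be the build of the deposited loci, and are written 5′ to 3′ on the strand of the gene. Capitals mark the GC box GGGCGG or its reverse complement CCGCCC, the core of the site that Sp factors bind, and neighbouring matches can overlap.
Cacnb3 (chr7:131666301-131666550, plus strand): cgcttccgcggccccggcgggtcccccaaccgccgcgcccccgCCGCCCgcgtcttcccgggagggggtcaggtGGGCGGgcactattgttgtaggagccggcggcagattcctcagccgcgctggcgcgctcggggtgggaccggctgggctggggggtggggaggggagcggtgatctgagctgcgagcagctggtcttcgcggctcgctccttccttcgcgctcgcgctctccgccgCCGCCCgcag
Cacna2d1, its most upstream start (chr4:20330148-20330397, minus strand): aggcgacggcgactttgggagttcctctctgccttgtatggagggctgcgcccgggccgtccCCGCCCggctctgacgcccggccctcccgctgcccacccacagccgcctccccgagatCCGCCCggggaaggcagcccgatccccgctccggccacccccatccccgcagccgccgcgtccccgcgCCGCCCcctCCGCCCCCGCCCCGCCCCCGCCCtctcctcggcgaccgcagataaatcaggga
Cacnb2, upstream start (chr17:82472965-82473214, plus strand): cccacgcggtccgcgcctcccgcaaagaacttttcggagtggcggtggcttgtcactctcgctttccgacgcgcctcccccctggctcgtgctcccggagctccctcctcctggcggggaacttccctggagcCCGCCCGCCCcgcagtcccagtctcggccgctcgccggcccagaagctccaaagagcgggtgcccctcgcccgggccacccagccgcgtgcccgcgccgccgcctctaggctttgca
Cacnb2, downstream start (chr17:82596542-82596791, plus strand): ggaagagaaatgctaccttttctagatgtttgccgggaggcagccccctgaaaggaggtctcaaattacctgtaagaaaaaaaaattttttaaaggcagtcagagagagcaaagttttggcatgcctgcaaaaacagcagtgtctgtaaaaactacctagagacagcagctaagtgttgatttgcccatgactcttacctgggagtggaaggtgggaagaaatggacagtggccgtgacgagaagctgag
Of the 8 windows, 7 held at least 1 GC box, against 30.5% of the 33465 windows of the same length in the RefSeq table. These windows are not independent: 3 are starts of Cacna2d1, and 2 of those overlap over most of their length and hold the same 3 matches. The Cacnb3 window had 3 matches, 35 CpG dinucleotides and a GC content of 76.4%, and the Cacna2d1 window 7 matches, 32 CpG and 77.2%. Over all windows the median was 5 CpG and 51.2% GC. The starts of Cacnb2 differ: the upstream one had 2 matches, 30 CpG and 73.2% GC, while the one 123577 bases downstream had 0 matches, 3 CpG and 45.6% GC. A match describes the letters of the window and is no evidence of binding, and the deposited gene-level values do not tell which Cacnb2 start was used.

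For none of the 7 genes did the difference between PDN and control rats pass the test. The 95% intervals are per gene and not adjusted for the number of genes tested. They give the range of changes that the values allow, not the size of change that the adjusted threshold could have detected. Fitted with limma on log2(FPKM + 1) over the 13282 genes that passed the filter, 0 of the 7 passed a Benjamini-Hochberg adjusted p of 0.05, as did 0% of all tested genes. At an unadjusted p under 0.05 there were also 0 of 7, where 4.72% of all tested genes were under it. In 0 of 7 genes were the 3 PDN libraries all above or all below the 3 controls, against 9.93% of tested genes. The estimate was lower in PDN for 5 genes and higher for 2, where 56.6% of all tested genes had a lower one. The log2 fold changes of the 7 genes had a median of -0.01, and those of all tested genes a median of -0.016. In bulk tissue, fewer cells of a type and less RNA per cell cannot be told apart.

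Cacna2d1, the α2δ gene with the highest level, was at 43.7, 44.5 and 49.8 FPKM in controls 1 to 3 and at 41.6, 44.9 and 42.6 in PDN 1 to 3. Control 3 was the highest library and PDN 1 the lowest, and the groups overlapped, since PDN 2 lay above 2 of the 3 controls. Control rats averaged 46.0 ± 3.31 FPKM and PDN rats 43.0 ± 1.66 (SD, n = 3 for both). In limma this was a log2 difference of -0.09 ± 0.07 (SE; 95% interval -0.26 to 0.08; adjusted p = 0.999). On that scale the upper end of that interval is a 1.05-fold rise. With control 3 left out the estimate was -0.036.

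Cacna2d2, whose protein also binds gabapentin, had the widest spread within groups of the α2δ and β genes. It was at 20.0, 18.1 and 18.7 FPKM in the controls and at 14.9, 21.1 and 12.7 in PDN 1 to 3. Thus 2 PDN libraries lay below all controls, and PDN 2 lay above all of them. Control rats averaged 19.0 ± 0.977 FPKM and PDN rats 16.3 ± 4.33 (SD, n = 3 for both). The log2 difference was -0.24 ± 0.16 (SE; 95% interval -0.62 to 0.14; limma adjusted p = 0.999). Its spread was at or above that of 90.2% of tested genes. Its estimate rested on single libraries: it was -0.43 without PDN 2 (limma unadjusted p = 0.00363, adjusted p = 0.879) and -0.088 without PDN 3. Without both control 2 and PDN 3 it was -0.12.

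Cacna2d3, an α2δ gene needed for heat pain sensing in flies and mice, was nearly level across the rats. Controls were at 26.4, 25.6 and 24.8 FPKM and PDN rats at 27.2, 24.8 and 24.7. The highest library, PDN 1, and the lowest, PDN 3, both belonged to the PDN group. Both groups averaged 25.6 FPKM, with an SD of 0.758 in controls and 1.42 in PDN (n = 3 for both). The log2 difference was -0.0029 ± 0.07 (SE; 95% interval -0.16 to 0.15; limma adjusted p = 1). Its sign turned with median-of-ratios and with upper-quartile scaling.

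Cacnb3, the β gene with the highest level and a partner of N-type channels in neurons, was at 94.1, 86.1 and 90.7 FPKM in controls and at 94.6, 90.8 and 91.0 in PDN. The lowest library was control 2, and PDN 1 and control 1 were highest and nearly equal. Control rats averaged 90.3 ± 4.02 FPKM and PDN rats 92.1 ± 2.16 (SD, n = 3 for both), a log2 difference of 0.03 ± 0.06 (SE; 95% interval -0.11 to 0.17; limma adjusted p = 0.999). Only 6.7% of tested genes had a spread within groups as low or lower.

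Cacnb4, the β gene mutated in the lethargic mouse, was at 21.3, 20.7 and 24.0 FPKM in controls and at 22.9, 22.6 and 22.1 in PDN. Control 3 was highest and control 2 lowest, and the PDN libraries lay between them. Control rats averaged 22.0 ± 1.76 FPKM and PDN rats 22.5 ± 0.416 (SD, n = 3 for both). Their log2 difference of 0.03 ± 0.07 (SE; 95% interval -0.14 to 0.21; limma adjusted p = 0.999) became 0.096 when control 3 was left out.

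Cacnb1, which encodes the β subunit of the skeletal muscle channel and is also expressed in neurons, was at 12.5, 10.8 and 10.2 FPKM in controls and at 11.8, 11.3 and 10.1 in PDN. Control 1 was highest, PDN 3 lowest, and the groups overlapped over most of their range. Control rats averaged 11.2 ± 1.20 FPKM and PDN rats 11.1 ± 0.888 (SD, n = 3 for both), and the log2 difference was -0.015 ± 0.10 (SE; 95% interval -0.24 to 0.21; limma adjusted p = 1). The sign of this estimate also turned with median-of-ratios and upper-quartile scaling.

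Cacnb2, the main β gene of heart muscle, was at 1.33, 1.86 and 1.56 FPKM in controls and at 1.29, 1.57 and 1.22 in PDN. Control 2 was highest and PDN 3 lowest, with controls 1 and 3 inside the PDN range. Control rats averaged 1.59 ± 0.264 FPKM and PDN rats 1.36 ± 0.183 (SD, n = 3 for both). The log2 difference was -0.13 ± 0.12 (SE; 95% interval -0.41 to 0.14; limma adjusted p = 0.999), and the pseudocount of 1 understates it at so low a level. Without both control 2 and PDN 3 it was -0.013, without control 2 alone -0.055 and without control 1 -0.202.

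**Figure D2:**
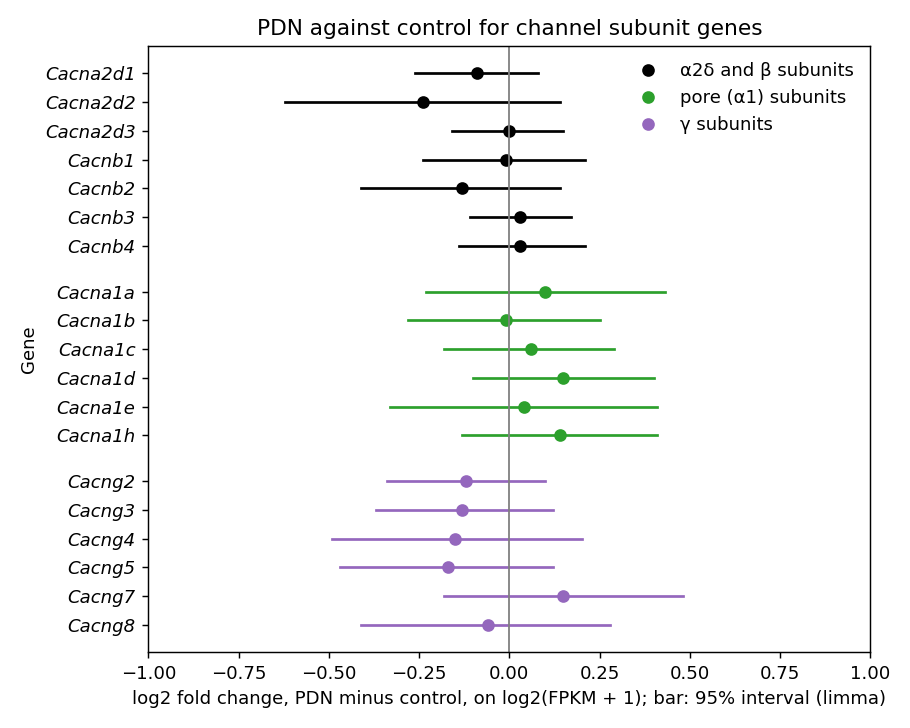
Log2 fold changes (PDN minus control, log2(FPKM + 1)) for the tested α2δ and β, pore and γ subunit genes, with bars for 95% intervals from limma. All 19 intervals include 0, and that of Cacna2d2, from -0.62 to 0.14, is the widest among the α2δ and β genes.

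**Figure D3:**
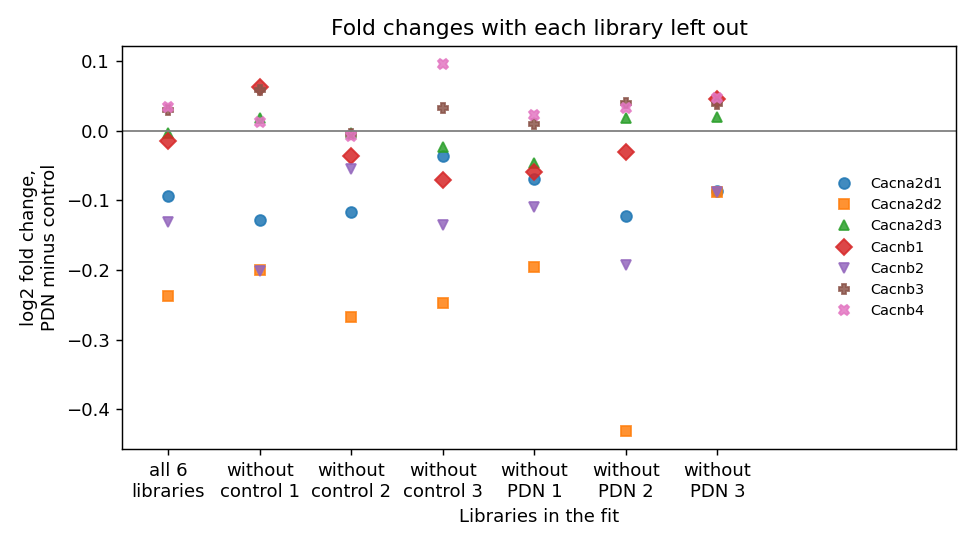
Log2 fold changes of the 7 α2δ and β genes (vertical axis) with all 6 libraries and with each library left out in turn (horizontal axis). Cacna2d2 runs from -0.431 without PDN 2 to -0.0879 without PDN 3, whereas the other 6 genes stay between -0.202 and 0.0956.

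The share of each gene in its family overlapped between the groups. Cacnb3 held 72.2% ± 0.552 of the summed β FPKM in controls and 72.5% ± 0.621 among PDN rats (SD, n = 3 for both), Cacnb4 17.6% ± 1.26 and 17.7% ± 0.179, Cacnb1 8.95% ± 0.807 and 8.69% ± 0.515, and Cacnb2 1.28% ± 0.266 and 1.07% ± 0.148. Cacna2d1 held 50.8% ± 2.43 of the summed α2δ FPKM in controls and 50.8% ± 2.12 in PDN, Cacna2d3 28.3% ± 1.45 and 30.2% ± 2.64, and Cacna2d2 20.9% ± 1.15 and 19.0% ± 3.81. The share of Cacna2d2 was lowest in PDN 3 at 15.9% and highest in PDN 2 at 23.3%. The summed α2δ FPKM was 0.698, 0.739 and 0.738 times the summed β FPKM in controls and 0.641, 0.719 and 0.644 times in PDN, so PDN 1 and PDN 3 lay below all controls and PDN 2 did not.

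The depth behind these values is known only indirectly, at an estimated 51855000 to 62785000 fragments per library derived from the deposited tables. Sensory neuron genes were abundant in all 6 libraries. Prph, which encodes the filament peripherin, was at 742 to 830 FPKM, the nociceptor sodium channel gene Scn10a at 102 to 132, the capsaicin receptor gene Trpv1 at 47.5 to 56.1 and the neuronal nuclear antigen gene Rbfox3 at 25.2 to 37.2. Of 10 sensory neuron markers, 10 were tested, 0 passed the adjusted threshold in limma, and their summed FPKM was 4190 to 4730 in controls and 4030 to 4520 in PDN. Glial RNA was abundant too: the summed FPKM of 6 satellite glia markers was 1790 to 2080 in controls and 1800 to 1990 in PDN, and of 6 Schwann cell markers 3310 to 4080 and 3300 to 3950. For 5 macrophage markers the sum was 24.2 to 34.5 in controls and 14.2 to 22.1 in PDN, for 4 fibroblast markers 299 to 334 and 264 to 282, and for 3 red blood cell genes 145 to 215 and 69.3 to 166. It was 61.1 to 74.1 and 41.3 to 64.1 for 5 markers of smooth muscle and pericytes, 30.2 to 38.1 and 34.9 to 39.0 for the 3 endothelial markers found, and 3.62 to 4.59 and 3.68 to 4.38 for 4 of heart muscle. The heart muscle sum is mostly that of Nppa, at 2.95 to 3.99 FPKM over the 6 libraries, and the other 3 heart markers were under the filter. The endothelial sum is carried by Cldn5 (log2 difference 0.31), whereas Cdh5 (-0.28) and Tek (-0.03) had lower estimates, and none of the 3 passed the adjusted threshold in limma. Of the macrophage markers 4 were tested, and 4 had lower estimates in PDN, groups that did not overlap and a limma unadjusted p under 0.05. Of 4 fibroblast markers, 4 had lower estimates, 2 had no overlap and 2 had such a p. Over all tested genes 9.93% had no overlap and 4.72% such a p. In both lists 0 passed the adjusted threshold in limma. The part of these cell types in the values of the α2δ and β genes was not tested.

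Cacna2d1 and Cacnb1 are also subunit genes of the skeletal muscle channel, and muscle RNA differed widely between the rats. The muscle actin gene Acta1 was at 1.11, 193 and 1.11 FPKM in controls and at 13.3, 1.35 and 68.8 in PDN, and the creatine kinase gene Ckm at 0.498, 97.5 and 0.334 and at 5.59, 0.354 and 31.7. The genes for the pore and the γ subunit of the muscle channel followed the same libraries: Cacna1s reached 3.75 FPKM in control 2 and 1.26 in PDN 3 and was at 0.0447 to 0.389 elsewhere, and Cacng1 reached 1.02 and 0.533 and was at most 0.151 elsewhere. Over the 10 muscle markers found, the summed FPKM was 498 in control 2, 160 in PDN 3, 31.6 in PDN 1 and 2.17 to 2.61 in the other libraries. The FPKM of Cacnb1 was 10.8 in control 2 and 10.1 in PDN 3, against 10.2 to 12.5 in the other 4 libraries. Cacna2d1 was at 44.5 and 42.6, inside the range of the other 4. The part of muscle RNA in their values was not tested. Cacnb2 was highest in control 2 but lowest in PDN 3.

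**Figure D4:**
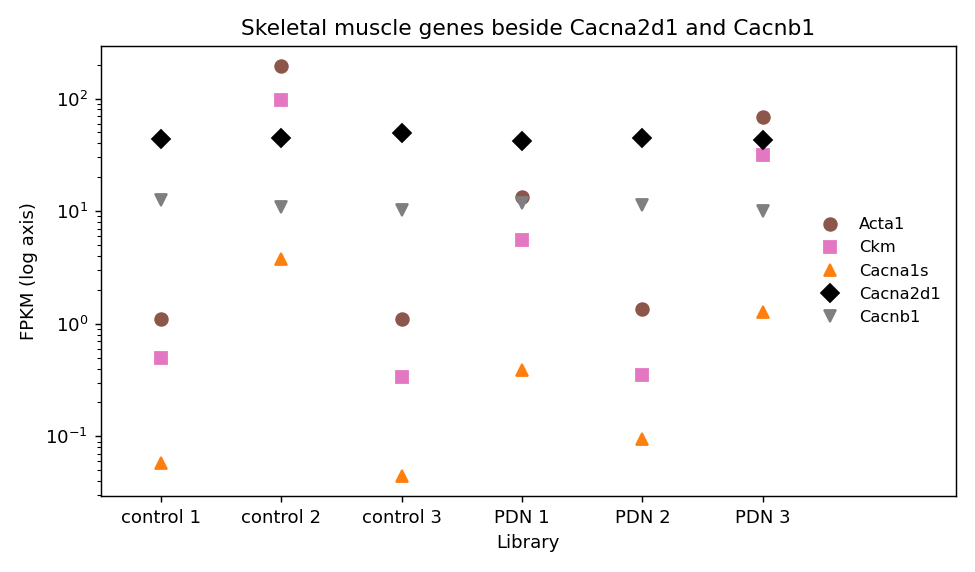
FPKM (log axis) of the muscle genes Acta1, Ckm and Cacna1s and of Cacna2d1 and Cacnb1 in each of the 6 libraries, 1 point per gene and library. Acta1 ranges from 1.11 to 193 while Cacna2d1 stays between 41.6 and 49.8 and Cacnb1 between 10.1 and 12.5.

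The pore genes gave no call either. Of 10 pore genes listed, 9 were found and 6 tested, with 0 past the adjusted threshold in limma, 0 at an unadjusted p under 0.05, 5 estimates higher and 1 lower in PDN, and a median log2 difference of 0.08. Cacna1b, the N-type pore and the highest of them, averaged 26.5 ± 3.40 FPKM over controls and 26.2 ± 2.77 over PDN rats (SD, n = 3 for both). Its log2 difference was -0.01 ± 0.11 (SE; limma adjusted p = 1), and the sign turned with scaling. The smallest p of the list was that of the L-type pore gene Cacna1d, at 1.94 ± 0.259 against 2.25 ± 0.219 FPKM, a log2 difference of 0.15 ± 0.11 (SE; limma adjusted p = 0.999) that was 0.0758 without control 2 and 0.0947 without PDN 1. Cacnb3 was at a higher FPKM than any tested pore gene in all libraries.

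Of 8 γ subunit and related genes, most of which are better known for their AMPA receptor partners, 6 were tested and 0 passed the adjusted threshold, with 1 estimate higher and 5 lower and a median of -0.12. Cacng5 had their smallest p, at 7.12 ± 0.585 FPKM in controls against 6.24 ± 1.10 among PDN rats (SD, n = 3 for both), a log2 difference of -0.17 ± 0.12 (SE; limma adjusted p = 0.999) that was -0.279 without PDN 1 and -0.0564 without PDN 2. Cachd1, which encodes a protein related to α2δ, was at 3.79 ± 0.155 and 3.66 ± 0.459 FPKM.

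Proteins known to bind α2δ, among them the thrombospondins, Lrp1 and the prion protein, had 9 of 9 genes tested and 0 past the adjusted threshold, with 4 estimates higher and 5 lower and a median of -0.01. The prion protein gene Prnp had the smallest p and was the 1 gene of these 9 whose groups did not overlap, a share close to the 9.93% of all tested genes. It was at 331, 345 and 320 FPKM in controls and at 283, 304 and 316 in PDN, a log2 difference of -0.14 ± 0.07 (SE; limma adjusted p = 0.999).

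Proteins known to bind β subunits or to act beside them on the pore, among them the RGK GTPases, which lower channel activity, Stac proteins, Ahnak, Rims1 and Cbarp, had 7 of 10 genes tested and 0 past the adjusted threshold, with 4 estimates higher and 3 lower and a median of 0.01. Cbarp, which encodes a negative regulator of the channel that binds β, had the smallest p, at 26.6 ± 1.26 FPKM in controls against 24.1 ± 2.09 among PDN rats (SD, n = 3 for both), a log2 difference of -0.14 ± 0.08 (SE; limma adjusted p = 0.999) that was -0.0681 without PDN 1.

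As Cacna2d1 is known to rise with nerve injury, injury genes are set beside it. Of 12 listed, 7 were tested and 0 passed the adjusted threshold in limma, with 4 estimates higher and 3 lower and a median of 0.01. The injury transcription factor gene Atf3 was at 3.47, 3.41 and 2.92 FPKM in controls and at 2.95, 4.07 and 5.69 in PDN, a log2 difference of 0.26 ± 0.18 (SE; limma adjusted p = 0.999). PDN 2 and PDN 3 lay above all controls and PDN 1 did not. The estimate was 0.071 without PDN 3 (limma unadjusted p = 0.631) and 0.451 without PDN 1 (limma unadjusted p = 0.019). With all 6 libraries the limma unadjusted p was 0.192. Neither reduced fit brought Atf3 past the adjusted threshold. The neuropeptide gene Gal, known for its rise after axotomy, had the smallest p. PDN rats averaged 1.37 ± 0.182 FPKM and control rats 2.27 ± 0.405 (SD, n = 3 for both). Its log2 difference of -0.46 ± 0.12 (SE) did not pass (limma unadjusted p = 0.00705, adjusted p = 0.909). It was the 1 injury gene of the 7 with an unadjusted p under 0.05, against 4.72% of all tested genes. It was also the 1 whose groups did not overlap, against 9.93%. Sprr1a was listed at 0 in all 6 libraries.

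The genes whose levels ran most like those of the highest α2δ and β genes were sought among 11961 tested genes by Pearson r of log2(FPKM + 1) over the 6 libraries. They were Nrtn (r = 0.987), Cyp2r1 (r = 0.984) and Gcnt4 (r = 0.982) for Cacna2d1, and Clcn6 (r = 0.996), Zfp82 (r = 0.993) and Carmil3 (r = 0.993) for Cacnb3. With 6 points such values are common, since 83 genes for Cacna2d1 and 260 for Cacnb3 had an r above 0.9, and the points share library preparation and depth. Both genes also varied by only 6.42% and 3.36% of their mean over the libraries (coefficient of variation), so these likenesses rest on small differences.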

How the data were processed

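RNA-seq of 6 rat libraries (3 control, 3 PDN, grouped by their titles) was analysed from the FPKM values as the authors deposited them. Libraries were strand-specific, per the labels' protocols, and the sources used here name no aligner, quantifier or build. A second table that the authors deposited carries whole numbers under the name of read counts, which were taken as a score, not counts: for genes above 1000, 54.5% to 54.9% equal FPKM times genomic span times 1 constant per library within a relative tolerance of 0.001, and 0 lie above, with totals of 573396748 to 684759626. The depth was estimated from those constants. This assumes that each constant scales with the fragment total, and the sources name no quantifier to check it against. No counting interval was computed.

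Genes with at least 1 FPKM in at least 3 libraries (13282) entered limma 3.58.1 (R 4.3.3) as log2(FPKM + 1). The fit used an intensity trend and the group alone, and p-values were Benjamini-Hochberg adjusted over all of them at 0.05. Fold changes are PDN minus control and understate changes of low genes. The script was tested on simulated data. P-values set the difference between groups against the spread between rats within groups, moderated by the trend over all tested genes. Members, gene lists and tests were chosen with earlier results of these data known. Named genes are the 7 members, in each partner list those at an unadjusted p under 0.05 or else the 1 with the smallest p, the highest pore gene, Atf3 and the injury gene with the smallest p, 4 muscle and 4 neuron genes, and the 3 most alike to Cacna2d1 and Cacnb3. Other named genes were chosen after their values were seen. One gene of the α2δ partner list is not reported here. Alternatives changed the pseudocount, filter, scaling, table, empirical Bayes step, weights and libraries, and added a replicate block; scaling by neuron markers was added after seeing the data.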

Additional observations from a re-analysis of the deposited data

How the results depend on the processing

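No alternative brought any of the 7 genes past the adjusted threshold, and Cacna2d1, Cacna2d2 and Cacnb2 kept a lower estimate in PDN in all that were run. Changes of the filter or the empirical Bayes step and the replicate block cannot move an estimate, so they do not bear on its sign. The whole-table count of 0 became 1 without the filter, 1 with robust empirical Bayes, 2 in the whole-number table, 9 without control 2 and PDN 3, and 0 to 6 when 1 library was left out (3, 2, 4 and 6 for control 1, control 3, PDN 1 and PDN 3, and 0 for control 2 or PDN 2). Log2 fold changes near 0 turned sign. Cacna2d3 was 0.0175 with median-of-ratios scaling, 0.0144 with upper-quartile scaling, 0.00629 in the whole-number table and 0.0198 without control 2 and PDN 3, and Cacnb1 was 0.0045, 0.00153 and 0.0235 with the same scalings and the same 2 libraries out. Cacnb3 was -0.000863 with scaling by neuron markers, chosen after seeing the data. Leaving out 1 library gave -0.128 to -0.0358 for Cacna2d1, -0.431 to -0.0879 for Cacna2d2, -0.0468 to 0.0201 for Cacna2d3, -0.0712 to 0.0628 for Cacnb1, -0.202 to -0.0552 for Cacnb2, -0.00431 to 0.0592 for Cacnb3 and -0.00679 to 0.0956 for Cacnb4. Of the other genes, Cacna1b was 0.00711, 0.00396 and 0.00586 with median-of-ratios scaling, upper-quartile scaling and the whole-number table, and Trpv1 -0.00491 with neuron-marker scaling and -0.0245 without control 2 and PDN 3. With 1 library out, Cacna1b ran from -0.105 to 0.0747, Scn10a from -0.135 to 0.0384, Trpv1 from -0.0303 to 0.0873, Acta1 from -0.717 to 2.66 and Ckm from -0.962 to 2.23. The cause was not tested. The stricter filter of 5 FPKM left no value for Cacnb2.

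Same-numbered libraries did not deviate together (r = 0.171, -0.12 and -0.0865 for numbers 1 to 3, across genes), so the numbers were not taken as pairs. In this balanced design a replicate block cannot move the estimates, only their SE and p. With it Cacna2d2 stayed at -0.238 (limma adjusted p = 0.803), and the whole-table count was 0.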

Other observations

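Among the genes under the filter, Rrad, which encodes an RGK GTPase that binds β subunits and lowers calcium current, was chosen after its values were seen. It was at 0.93, 1.19 and 0.787 FPKM in controls and at 0.502, 0.285 and 0.679 in PDN. The groups did not overlap, as was so for 9.93% of the genes that passed the filter. In the fit without a filter its log2 fold change was -0.41 ± 0.12 (SE), which did not pass (limma unadjusted p = 0.0141, adjusted p = 0.963). Of the 18748 genes in that fit, 950 had an unadjusted p under 0.05.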
